A study of Mus musculus with 96 samples.

Results

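Serotonin receptors were followed through the striatum of Huntington's disease knock-in mice. The 8 receptor genes, Htr1b, Htr1d, Htr1f, Htr2a, Htr2c, Htr4, Htr6 and Htr7, were chosen by name as the serotonin receptors of interest and found by their Ensembl identifiers, which gave 8 of the 39179 genes listed. The tables covered 96 mRNA sequencing libraries from the striatum of C57BL/6 mice. At 6 and at 10 months of age there were wild types and 4 heterozygous knock-in genotypes labelled Q20, Q50, Q92 and Q140 after a CAG length of 20, 50, 92 or 140 in the Huntington's disease gene. Each of 12 groups held 8 libraries, 4 from females and 4 from males. Housing split the wild types of each age into 2 groups of cage mates, of Q20 or of Q50 animals (below, the Q20 and Q50 cohort), and Q92 and Q140 mice lived with their own genotype alone. Q140 and Q92 mice were therefore set against the 16 wild types of an age together, and Q50 and Q20 mice against the 8 wild types of their own cohort. Housing and genotype cannot be told apart where Q140 or Q92 mice are set against wild types. Each knock-in mouse carried 1 wild-type and 1 knock-in allele, and all values came from whole dissected striatum.

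Serotonin reaches the striatum through fibres of raphe neurons in the brainstem, and its receptors in this set are all G protein-coupled. Htr1b, Htr1d and Htr1f encode the 5-HT1B, 5-HT1D and 5-HT1F receptors, which couple to the inhibitory Gi and Go proteins and lower cyclic AMP. Htr2a and Htr2c encode the 5-HT2A and 5-HT2C receptors, which couple to Gq and phospholipase C. Htr4, Htr6 and Htr7 encode receptors that couple to the stimulatory Gs protein and raise cyclic AMP. Spiny projection neurons, the main cells of the striatum and the cells most affected in Huntington's disease, carry several of them, and epithelial cells of the choroid plexus, a neighbouring structure, carry much Htr2c.

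The sequences before 3 of the receptors are shown because Htr1b and Htr2c moved in opposite directions below and Htr7 moved with genes of another tissue. RefSeq promoter windows (GRCm38.p6), from 250 bases before to 50 bases after an annotated start, were read for 7 of the 8 receptors. They are printed 5′ to 3′ on the gene's strand, in lower case, with capitals for matches on either strand to the CCAAT box, to the motif TGACG (also inside the longer TGACGTCA) or to GCGTGGGCG; the TATAAA box, the motif GGGCGG and the full TGACGTCA were also searched and had no match in these 3 windows.
Htr1b, chr9:81633783-81634082, minus strand: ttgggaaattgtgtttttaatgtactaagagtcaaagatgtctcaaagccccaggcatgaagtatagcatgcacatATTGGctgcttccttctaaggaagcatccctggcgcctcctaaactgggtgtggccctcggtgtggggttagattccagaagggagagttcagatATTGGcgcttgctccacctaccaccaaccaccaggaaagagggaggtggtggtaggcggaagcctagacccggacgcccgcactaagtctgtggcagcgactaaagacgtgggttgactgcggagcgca
Htr2c, chrX:146962263-146962562, plus strand: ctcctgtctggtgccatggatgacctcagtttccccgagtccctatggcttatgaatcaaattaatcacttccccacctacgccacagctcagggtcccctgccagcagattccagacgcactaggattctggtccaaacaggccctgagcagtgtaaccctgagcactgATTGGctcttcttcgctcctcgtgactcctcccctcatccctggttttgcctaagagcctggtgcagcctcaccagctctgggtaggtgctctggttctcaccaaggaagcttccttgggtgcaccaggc
Htr7, chr19:36057311-36057610, minus strand: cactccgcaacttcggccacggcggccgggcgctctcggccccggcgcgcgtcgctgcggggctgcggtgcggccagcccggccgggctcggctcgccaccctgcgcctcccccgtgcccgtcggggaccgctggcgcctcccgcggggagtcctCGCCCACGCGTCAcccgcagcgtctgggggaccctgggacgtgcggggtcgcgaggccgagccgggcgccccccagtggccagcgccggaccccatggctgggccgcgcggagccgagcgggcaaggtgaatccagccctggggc
The Htr1b window held 2 CCAAT boxes and the Htr2c window 1, all on the reverse strand; 37.4% of 32817 promoter windows hold at least 1. The Htr7 window was 81% G and C with 46 CG dinucleotides, against a median of 52.7% and 7 over all windows. Its capitals join a GCGTGGGCG, which 0.612% of windows hold, to an overlapping TGACG, which 20.8% hold, both on the reverse strand. In the Htr1b window G and C made up 53.3% with 11 CG dinucleotides, and in the Htr2c window 56.3% with 5. These matches describe the letters of the windows alone.

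In GENCODE M21 (GRCm38) the 3 receptors that passed in Q140 mice against wild types lie at chr9:81628291-81633828 on the minus strand (Htr1b), chrX:146962513-147197277 on the plus strand (Htr2c) and chr18:62324204-62496577 on the plus strand (Htr4), and Htr7 lies at chr19:35958734-36057507 on the minus strand. All 8 receptors were counted in every library. Estimated counts per library had medians between 58.5 for Htr1f and 2658 for Htr2c, and no library was at 0 for any receptor. Libraries held 29.1 to 40.2 M counts. All 13 listed markers of both projection neuron types were counted in each library, but their amount differed widely. Their summed CPM had a lowest, median and highest value of 2414, 10290 and 13840. For 9 direct pathway markers these values were 246.6, 774.6 and 1012, and for 5 indirect pathway markers 351.3, 1425 and 1998. A count above 0 therefore does not show an equal share of striatal tissue in each library. At 10 months 4 libraries, Q140 M4, Q20 F4, Q20 M4 and Q92 F1, had a median correlation below 0.98 with the other libraries of their age. The main tests at this age and the correlation of Htr2c with Ttr were also computed without them. Correlations of receptors with tissue levels and with other genes used all 48 libraries, these 4 included. The mean log2 CPM (counts scaled to library size, per M counts) of 9 thalamus genes was between 2.36 and 6.82 in the 96 libraries, and that of 15 choroid plexus genes between -0.292 and 2.39; no gene of either list was at 0 in any library. Htt, the targeted gene, had 164.5 ± 18.3 CPM in Q140 mice and 203.8 ± 9.04 CPM in wild types at 10 months (SD, n = 8 and 16; log2 fold change -0.31 ± 0.04 SE, adjusted p = 3.995e-07 by edgeR's quasi-likelihood test), and its total does not check the CAG label of a library.

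Htr1b and Htr2c were the most abundant receptors per unit of gene length in every group. In FPKM, fragments scaled to transcript length and library size, Htr1b averaged 17.5 ± 3.28 in Q20-cohort and 18.3 ± 2.33 in Q50-cohort wild types at 6 months (SD, n = 8 each), and Htr2c 15.4 ± 1.78 and 16.04 ± 1.97. These neighbours in the order did not separate, as Htr1b was the higher in 6 of 8 libraries of each cohort. Htr1d followed at 4.575 ± 0.686 and 5.75 ± 1.11 FPKM, below every Htr2c value, and then Htr2a at 3.41 ± 0.650 and 4.025 ± 0.935. Htr7 averaged 1.88 ± 0.373 and 1.59 ± 0.225 FPKM, Htr6 1.81 ± 0.253 and 2.14 ± 0.254 FPKM, and Htr4 was the lowest of the 3, with ranges that overlapped from one to the next in at least 1 cohort. Htr1f was lowest, at 0.712 ± 0.116 and 0.773 ± 0.0891 FPKM.

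**Figure D1:**
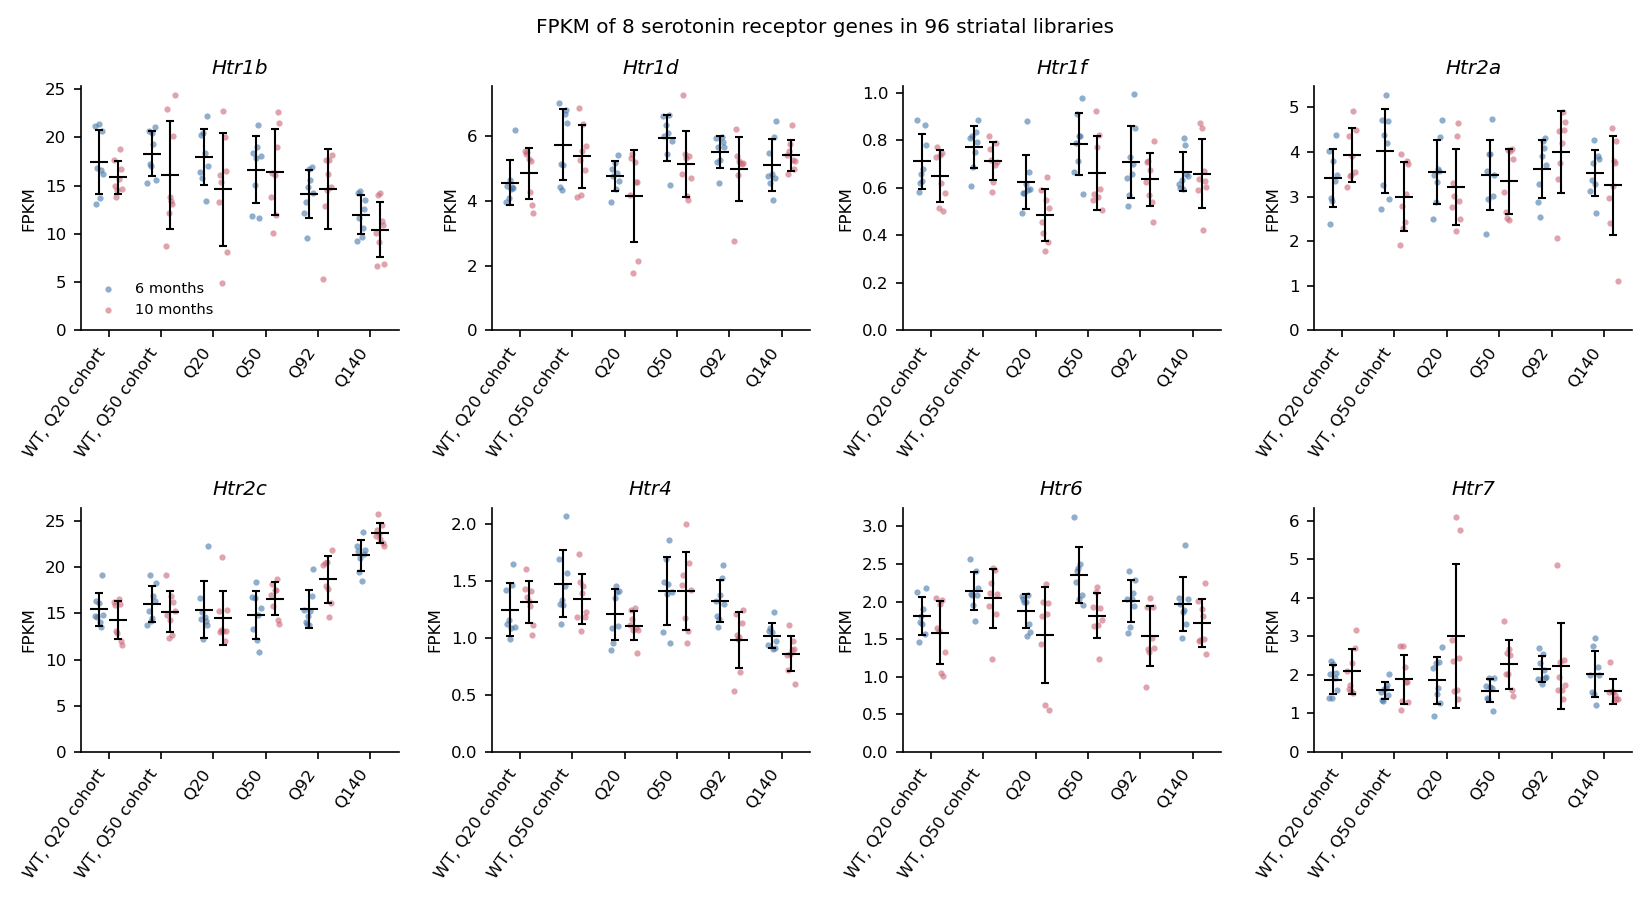
FPKM of each receptor (vertical axis, from 0) in every library at 6 and 10 months; groups run from the wild types of both cohorts to Q140, and black marks are the mean and SD of 8 libraries. Mean Htr2c was highest and mean Htr1b and Htr4 were lowest in Q140 mice, and Htr7 spread widely in Q20 mice at 10 months.

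In Q140 striatum Htr2c was above Htr1b in every library at both ages. At 10 months Htr2c averaged 23.7 ± 1.10 FPKM and Htr1b 10.4 ± 2.87 FPKM in Q140 mice (SD, n = 8), and the lowest Htr2c value, 22.35, was above the highest Htr1b value, 14.3. The same separation held in Q140 mice at 6 months, where Htr2c was at 18.5 to 23.8 FPKM and Htr1b at 9.26 to 14.5. In Q92 mice Htr2c was the higher in 4 of 8 libraries at 6 months and in 7 of 8 at 10 months. Its mean was also above that of Htr1b in Q92 mice at 6 months (15.5 and 14.2 FPKM) and 10 months (18.7 and 14.7 FPKM). The same held in Q50 mice at 10 months (16.6 and 16.4 FPKM). In Q50-cohort wild types at 10 months Htr1b was the higher in 4 of 8 libraries. Across the 12 groups, mean FPKM of Htr1b lay between 10.4 ± 2.87 in Q140 mice at 10 months and 18.3 ± 2.33 in Q50-cohort wild types at 6 months. Group means of Htr1d lay between 4.16 ± 1.42 and 5.95 ± 0.709, of Htr1f between 0.485 ± 0.110 and 0.784 ± 0.130, and of Htr2a between 2.999 ± 0.770 and 4.025 ± 0.935. Group means of Htr4 lay between 0.864 ± 0.157 and 1.48 ± 0.297, of Htr6 between 1.545 ± 0.399 and 2.35 ± 0.372, and of Htr7 between 1.57 ± 0.320 and 3.01 ± 1.87. The lowest of these group means were in Q140 mice at 10 months for Htr4 and Htr7 and in Q20 mice at 10 months for Htr1d and Htr1f.

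Q140 mice were compared with wild types to ask which receptors differ at the longest CAG length. At both ages Htr2c rose while Htr1b and Htr4 fell, and the other 5 receptors did not pass the test. At each age 3 of 8 receptors passed, against 23.7% of 17339 genes at 6 months and 19.2% of 17285 genes at 10 months, so that change in this comparison was common among all genes; 11.7% and 10.8% of genes rose and 12% and 8.45% fell. The test was edgeR's quasi-likelihood test on the estimated counts with Benjamini-Hochberg adjustment over all genes tested, and the threshold was an adjusted p of 0.05; levels below are in CPM scaled within each age. The labels name no animals, so p-values measure the spread between these libraries, and in whole tissue fewer cells of a type and less RNA per cell cannot be told apart.

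Htr1b, the receptor through which serotonin damps release from axon terminals, had 42.8, 56.2 and 68.2 CPM as its lowest, median and highest value in Q140 mice at 6 months, against 62.1, 80.1 and 102.3 CPM in wild types. The groups overlapped, with 5 of 8 Q140 libraries below the lowest wild type and all 8 below the wild-type median. Its log2 fold change was -0.61 ± 0.12 (SE), a 1.53-fold fall (adjusted p = 9.48e-05). At 10 months Htr1b ran from 30.7 through a median of 48.5 to 67.7 CPM in Q140 mice, against 41.2, 71.5 and 117.6 CPM in wild types. Only 2 of 8 Q140 libraries were below the lowest wild type at this age, since wild types of the Q50 cohort spread widely (76.6 ± 28.0 CPM, SD, n = 8). The log2 fold change was -0.65 ± 0.20 (adjusted p = 0.0170), and it missed the threshold without Q140 M4 (adjusted p = 0.0524) and in females alone (0.328) or males alone (0.0779). Without the 4 libraries that stood apart it was -0.57 ± 0.15 (adjusted p = 0.00427). An annotated antisense gene, D430036J16Rik, overlaps Htr1b, and the strand of counting is not given in the sources used here, so reads of the pair cannot be told apart. D430036J16Rik itself was at 8.45 ± 1.19 CPM in Q140 mice and 11.4 ± 1.17 CPM in wild types at 6 months (log2 fold change -0.43 ± 0.07, adjusted p = 8.99e-06). At 10 months it was at 7.85 ± 1.14 CPM and 10.3 ± 1.41 CPM and did not pass (log2 fold change -0.39 ± 0.18, adjusted p = 0.115).

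Htr1d, a close relative of Htr1b that also acts on axon terminals, was at 12.7 ± 1.86 CPM in Q140 mice and 13.6 ± 2.92 CPM in wild types at 6 months, and at 13.7 ± 1.49 CPM and 13.8 ± 2.62 CPM at 10 months (SD, n = 8 and 16). Its log2 fold changes were -0.10 ± 0.08 (adjusted p = 0.402) and -0.01 ± 0.15 (adjusted p = 0.981). Htr1f, the third of the inhibitory receptors, had 1.64 ± 0.198 CPM in Q140 mice and 1.87 ± 0.260 CPM in wild types at 6 months. Its log2 fold change of -0.19 ± 0.09 had an unadjusted p of 0.04995 and an adjusted p of 0.140, and at 10 months it was -0.09 ± 0.12 (adjusted p = 0.663).

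Htr2c, whose receptor signals through Gq to calcium stores, had 85.7, 100.4 and 110.1 CPM as its lowest, median and highest value in Q140 mice at 6 months, against 63.2, 72.8 and 90.9 CPM in wild types. Of the 8 Q140 libraries 6 were above the highest wild type. The log2 fold change was 0.40 ± 0.08, a 1.32-fold rise (adjusted p = 2.12e-04); in males alone it was 0.39 ± 0.13 (adjusted p = 0.0720) and in females alone 0.41 ± 0.08 (adjusted p = 0.00173). At 10 months the same 3 values were 101.9, 109.7 and 121.3 CPM in Q140 mice, against 54.4, 73.2 and 90.0 CPM in wild types. The groups did not overlap, a pattern in this direction that 0.712% of genes showed (0.845% in the other); at 6 months none of the 8 receptors showed it, where 0.404% of genes lay wholly above and 1.32% wholly below the wild types. The log2 fold change was 0.64 ± 0.08, a 1.56-fold rise (adjusted p = 1.745e-08). The difference between the 10 month and 6 month effects was 0.25 ± 0.12 (unadjusted p = 0.0320, adjusted p = 0.227), so a larger effect at 10 months was not shown.

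Htr2a, the other receptor of the Gq pair, had 10.3 ± 1.56 CPM in Q140 mice and 11.1 ± 2.59 CPM in wild types at 6 months, and 9.53 ± 3.30 CPM and 10.4 ± 2.52 CPM at 10 months (SD, n = 8 and 16). Its log2 fold changes were -0.10 ± 0.12 and -0.11 ± 0.16 (adjusted p = 0.574 and 0.709).

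Htr4, the Gs-coupled receptor that fell, had 4.11, 4.66 and 5.60 CPM as its lowest, median and highest value in Q140 mice at 6 months, against 4.70, 6.21 and 9.74 CPM in wild types. All 8 Q140 libraries were below the wild-type median and 4 below the lowest wild type. The log2 fold change was -0.44 ± 0.10 (adjusted p = 0.00126), and it missed the threshold against the Q20-cohort wild types alone (-0.32, adjusted p = 0.0634), against Q20 mice (-0.27, adjusted p = 0.126) and in females alone (-0.32, adjusted p = 0.145). At 10 months Htr4 had 2.69, 4.03 and 5.2 CPM in Q140 mice, against 4.91, 6.42 and 8.40 CPM in wild types, with 7 of 8 Q140 libraries below the lowest wild type. The log2 fold change was -0.67 ± 0.13, a 1.59-fold fall (adjusted p = 1.20e-04), and against Q20 mice it was -0.39 ± 0.14 (adjusted p = 0.0354).

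Htr6 and Htr7, the other receptors that raise cyclic AMP, did not pass in this comparison. Htr6 was at 4.52 ± 0.828 CPM in Q140 mice and 4.61 ± 0.664 CPM in wild types at 6 months, and at 3.95 ± 0.744 CPM and 4.29 ± 1.06 CPM at 10 months (SD, n = 8 and 16). Htr7 was at 6.00 ± 1.79 CPM in Q140 mice and 5.30 ± 1.02 CPM in wild types at 6 months, and at 4.70 ± 0.909 CPM and 6.12 ± 1.802 CPM at 10 months. The log2 fold changes of Htr7 had opposite signs, 0.18 ± 0.14 (adjusted p = 0.373) and -0.39 ± 0.23 (adjusted p = 0.241). Their difference was -0.54 ± 0.27 (unadjusted p = 0.0458, adjusted p = 0.266).

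**Figure D2:**
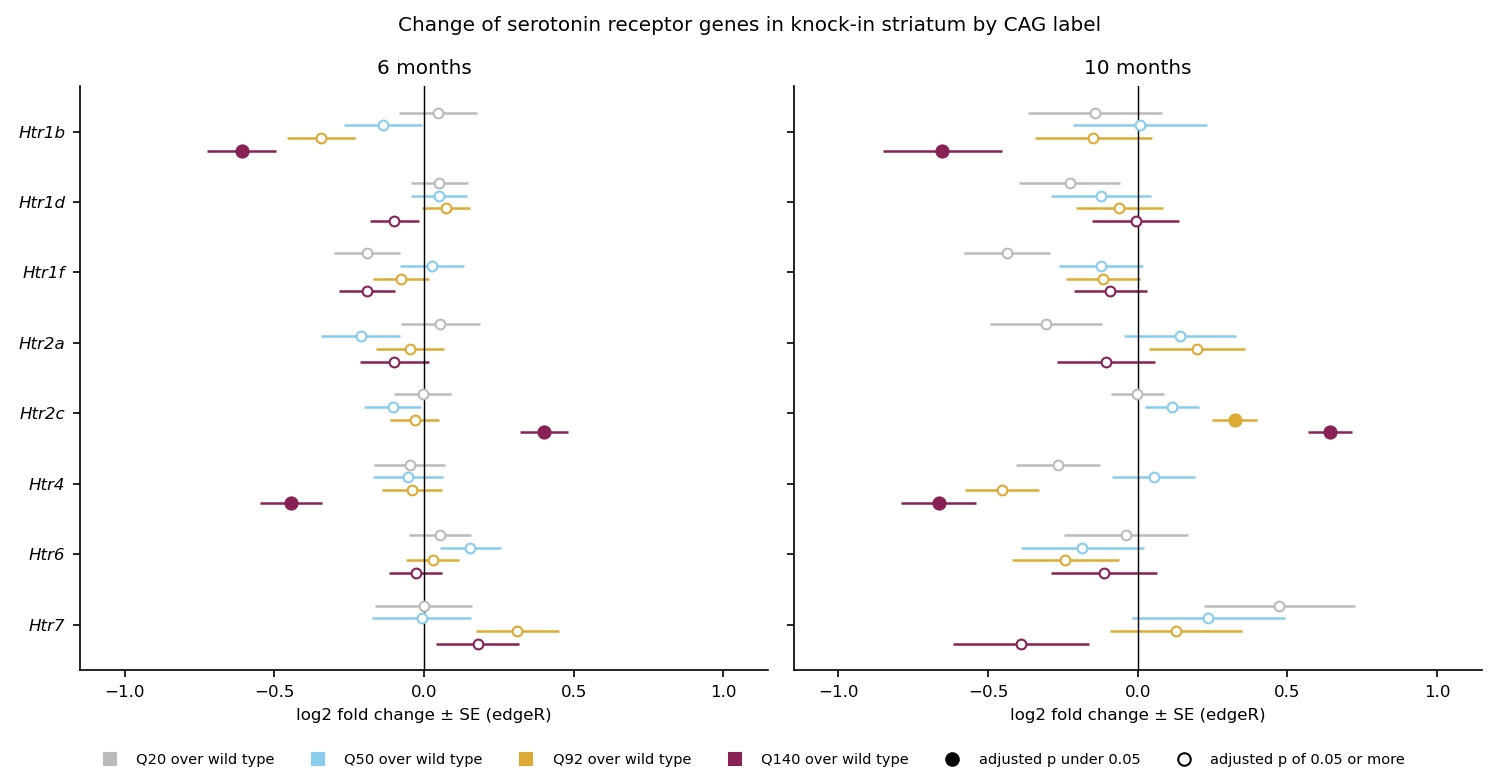
log2 fold change ± SE of each receptor (rows) in Q20, Q50, Q92 and Q140 mice over wild types at 6 months (left) and 10 months (right); filled points have an adjusted p under 0.05. Filled points are Htr1b, Htr2c and Htr4 in Q140 mice at both ages and Htr2c in Q92 mice at 10 months.

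At shorter CAG lengths few receptors passed. In Q92 mice Htr2c rose at 10 months, with 70.3, 89.1 and 104.4 CPM as lowest, median and highest value, against 54.4, 73.2 and 90.0 CPM in wild types; 4 of 8 libraries were above the highest wild type. Its log2 fold change was 0.32 ± 0.08 (adjusted p = 0.0317), where 0.422% of genes passed. The call was lost without any 1 of 5 libraries, Q92 F1, F2, F4 and M4 and Q20-cohort wild type F4 (adjusted p up to 0.117), and against the Q50-cohort wild types alone (0.222), while without the 4 libraries that stood apart adjusted p was 0.0111. None of the 8 receptors lay wholly above or below the wild types in Q92 mice, as 0.0288% and 0.0231% of genes did at 6 months and 0.0289% and 0.0289% at 10 months. At 6 months Htr2c was at 73.0 ± 9.43 CPM in Q92 mice and 74.4 ± 8.37 CPM in wild types (log2 fold change -0.03 ± 0.08, adjusted p = 0.862). Htr4 in Q92 mice at 10 months was at 4.58 ± 1.16 CPM against 6.27 ± 0.949 CPM in wild types, with 5 of 8 libraries below the lowest wild type, and had an adjusted p of 0.0918 (log2 fold change -0.45 ± 0.12). Htr1b in Q92 mice at 6 months was at 67.1 ± 11.7 CPM against 84.9 ± 13.9 CPM in wild types, with an adjusted p of 0.0636 (log2 fold change -0.35 ± 0.11).

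In Q92 mice at 6 months 0 of 8 receptors passed by edgeR, 2 had an unadjusted p under 0.05 (Htr1b and Htr7) and DESeq2 called 1 (Htr1b), where 5.44% of genes passed. In Q50 mice 0 of 8 passed at either age by edgeR or DESeq2, and 0 had an unadjusted p under 0.05. In Q20 mice 0 of 8 passed at either age by edgeR or DESeq2, and 1, Htr1f at 10 months, had an unadjusted p under 0.05. It was at 1.22 ± 0.292 CPM in Q20 mice, against 1.66 ± 0.277 CPM in their cohort's wild types (log2 fold change -0.44 ± 0.14, adjusted p = 0.228). Few genes of any kind passed there: 0.0634% and 0.0636% in Q50 mice and 0.0231% and 0.0405% in Q20 mice at 6 and 10 months.

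Q140 mice were also set directly against Q92 mice, which were likewise housed with their own genotype alone. Htr2c was higher in Q140 mice at both ages, by 0.43 ± 0.10 at 6 months (adjusted p = 0.00230) and 0.32 ± 0.09 at 10 months (adjusted p = 0.0308) on the log2 scale. Htr4 was lower in Q140 mice at 6 months, by a log2 fold change of -0.40 ± 0.12 (adjusted p = 0.0287). These were 2 of 8 receptors at 6 months, where 6.38% of genes passed, and 1 of 8 at 10 months, where 3.30% passed. The Htr4 call at 6 months was lost without any 1 of 6 libraries (Q140 M1, M3 and M4, Q92 F1, M2 and M3; adjusted p up to 0.0689). The Htr2c call at 10 months was lost without any 1 of 6 libraries (Q140 M1 and M2, Q92 F3, M1, M2 and M3; adjusted p up to 0.0816). Because Q140 and Q92 mice share their wild types above, this comparison alone sets the genotypes apart.

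Among the 32 knock-in libraries of an age, expression was regressed on the CAG label, and slopes are given for 120 CAG units, the span between Q20 and Q140. Only Q92 and Q140 mice lived with their own genotype alone, so the slope cannot separate housing from CAG length. At 6 months Htr2c rose by 0.43 ± 0.10 on the log2 scale (adjusted p = 0.00345) and Htr1b had a slope of -0.63 ± 0.12 (adjusted p = 4.34e-04), where 17.3% of genes passed. At 10 months, where 24% of genes passed, Htr2c rose by 0.67 ± 0.07 (adjusted p = 1.39e-07), Htr4 had a slope of -0.55 ± 0.17 (adjusted p = 0.0160) and Htr7 a slope of -0.86 ± 0.25 (adjusted p = 0.0125). Group means of Htr2c at 10 months were 68.5 ± 12.2, 77.9 ± 7.93, 88.1 ± 11.6 and 109.7 ± 5.97 CPM in Q20, Q50, Q92 and Q140 mice (SD, n = 8 each). At 6 months they were 73.1 ± 13.6, 70.3 ± 11.97, 73.0 ± 9.43 and 98.6 ± 7.65 CPM, with the Q140 mean above those of all 3 shorter lengths. Single libraries overlapped, as the highest values were 104.1, 86.6 and 93.1 CPM in Q20, Q50 and Q92 mice. The lowest Q140 value was 85.7 CPM. Group means of Htr4 at 10 months were 5.19 ± 0.626, 6.545 ± 1.638, 4.58 ± 1.16 and 3.96 ± 0.749 CPM in Q20, Q50, Q92 and Q140 mice. They did not follow the order of the CAG label, as Q20 mice were below Q50 mice. All 8 Q20 libraries were also below the median of their cohort's wild types for Htr4 at this age. Htr4 at 6 months had a slope of -0.32 ± 0.13 (adjusted p = 0.0900). Htr1b at 10 months had a slope of -0.53 ± 0.24 (adjusted p = 0.105); without the 4 libraries that stood apart it was -0.63 ± 0.16 (adjusted p = 0.00410) and with the thalamus level in the fit -1.01 ± 0.25 (adjusted p = 0.00621).

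Choroid plexus RNA was examined beside Htr2c, since that tissue carries the receptor. Ttr, which encodes transthyretin and is a very abundant choroid plexus transcript, varied far more between libraries than Htr2c. At 6 months it had 5.33, 15.3 and 71.9 CPM as lowest, median and highest value in Q140 mice, against 10.45, 31.4 and 204.3 CPM in wild types, and at 10 months 15.95, 40.1 and 266.9 CPM in Q140 mice, against 6.75, 33.4 and 281.6 CPM in wild types. Ttr did not pass in Q140 mice at 6 months (log2 fold change -0.84 ± 0.50, adjusted p = 0.230) or at 10 months (0.42 ± 0.60, adjusted p = 0.683), nor in Q92 mice at either age, and in the regression on CAG label at 6 months its slope was -1.62 ± 0.57 (adjusted p = 0.0472), opposite in sign to that of Htr2c. Of the 15 choroid plexus genes 2 fell (Kcnj13 and Calml4) and 0 rose in Q140 mice at 6 months, where 12% of all genes fell and 11.7% rose. At 10 months 0 passed by edgeR, where 19.2% of all genes passed. In the regression on CAG label 6 of the 15 fell at 6 months, Ttr among them, and 1 fell at 10 months, with 0 rises. Of all genes 17.3% and 24% passed there.

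After group and sex means were removed, Htr2c and Ttr were related across the 48 libraries of an age, with opposite signs at the 2 ages. At 6 months Pearson's r was 0.489 (permutation p = 0.00039, adjusted p = 0.0016 over the 4 coefficients computed) and Spearman's rho 0.434 (permutation p = 0.0022, adjusted p = 0.0045). At 10 months r was -0.321 (permutation p = 0.026, adjusted p = 0.026) and rho -0.369 (permutation p = 0.011, adjusted p = 0.014). Without the 2 libraries farthest from the Ttr median r was 0.396 at 6 months (permutation p = 0.0063) and -0.325 at 10 months (permutation p = 0.027). Without the 4 libraries that stood apart r at 10 months was -0.297 (permutation p = 0.051). On FPKM r at 10 months was -0.276 (permutation p = 0.057), and without removal of means r was 0.130 at 6 months (permutation p = 0.38) and -0.153 at 10 months (permutation p = 0.3). The relation at 10 months thus missed 0.05 by Pearson's r under each of these 3 alternatives, and that at 6 months under 1 of 2, with means left in.

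The Htr2c change in Q140 mice was also fitted with the choroid plexus level held in the fit. With the mean of the 15 choroid plexus genes as a covariate, the log2 fold change of Htr2c was 0.48 ± 0.07 at 6 months (adjusted p = 9.66e-07) and 0.66 ± 0.08 at 10 months (adjusted p = 1.14e-08), against 0.40 ± 0.08 and 0.64 ± 0.08 without it. That level was 0.295 ± 0.295 log2 CPM in Q140 mice and 0.646 ± 0.584 log2 CPM in wild types at 6 months, and 0.872 ± 0.708 and 0.692 ± 0.647 log2 CPM at 10 months (SD, n = 8 and 16). After removal of group and sex means, its correlation with Htr2c was 0.548 at 6 months and -0.201 at 10 months. The part of choroid plexus RNA in the Htr2c change was not tested.

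**Figure D3:**
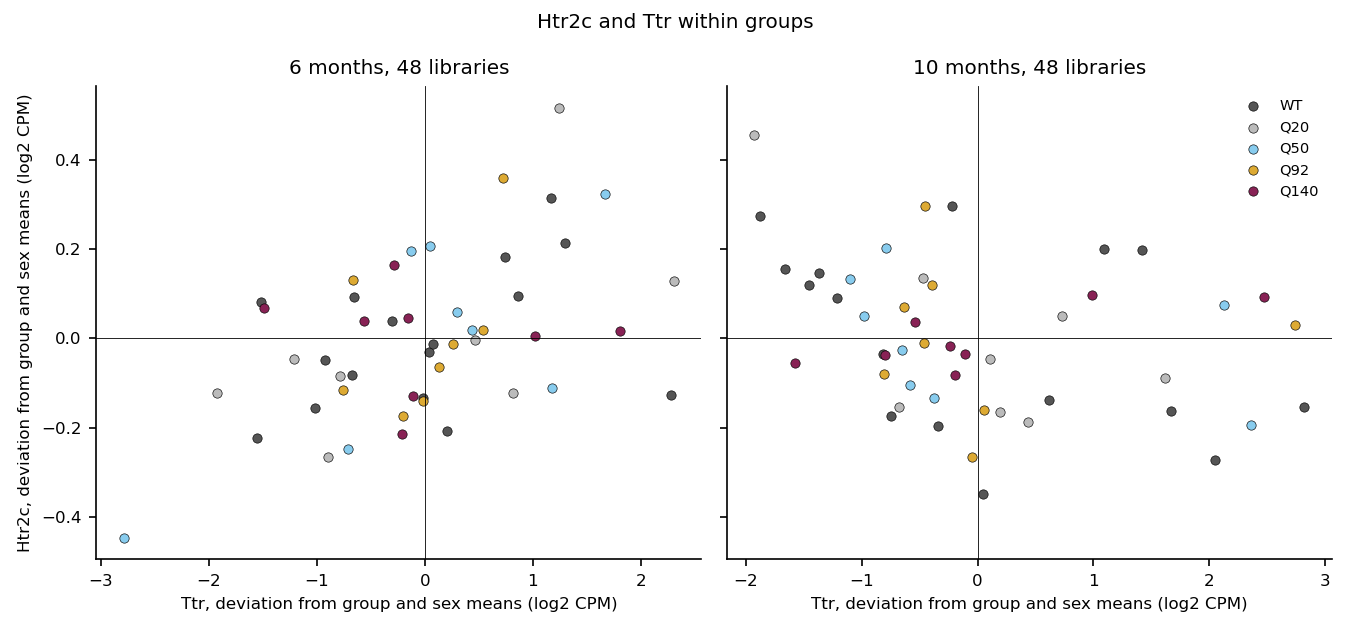
Deviation of Htr2c from its group and sex means (vertical axis, log2 CPM) against that of Ttr (horizontal axis, log2 CPM) in 48 libraries at 6 months (left) and 48 at 10 months (right), coloured by genotype. The points slope upwards at 6 months (r = 0.489) and downwards at 10 months (r = -0.321), and Ttr spans a much wider range than Htr2c.

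Htr7 moved with genes of the thalamus, a region next to the striatum in which it is well expressed. Across 48 libraries, after removal of group and sex means, the correlation of Htr7 with the mean of 9 thalamus genes was 0.771 at 6 months and 0.846 at 10 months, a description over libraries that share their dissection, sequencing depth and scaling. For the other 7 receptors this correlation lay between -0.441 and -0.084 at 6 months and between -0.676 and 0.033 at 10 months, with Htr2c nearest to 0 at both. The 3 libraries with the most Htr7 at 10 months were Q20 F4 (17.9 CPM), Q20 M4 (17.5 CPM) and Q92 F1 (14.3 CPM), and their thalamus levels of 6.30, 6.82 and 6.36 log2 CPM were the highest of the 48. All 9 thalamus genes had a negative slope past the threshold in the regression on CAG label at 10 months, as Htr7 did. With the thalamus level in that fit the Htr7 slope was 0.08 ± 0.18 (adjusted p = 0.836), and without the 4 libraries that stood apart it was -0.47 ± 0.16 (adjusted p = 0.0342).

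**Figure D4:**
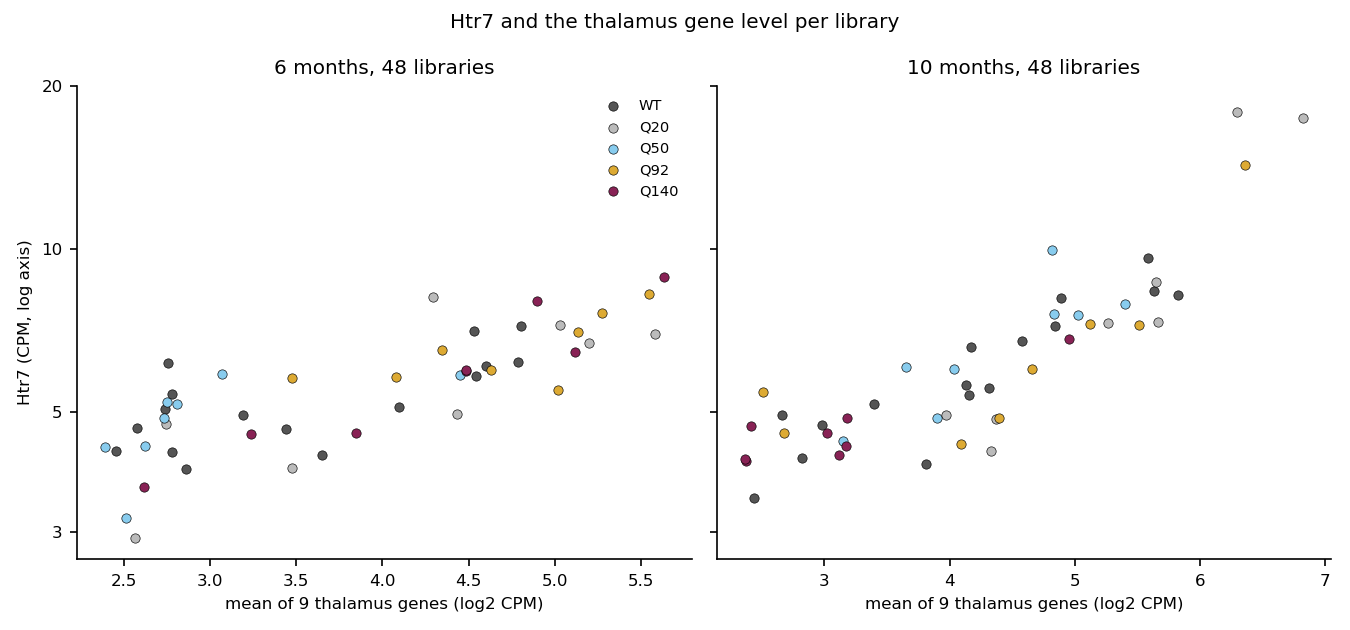
Htr7 (vertical axis, CPM, log scale) against the mean of 9 thalamus genes (horizontal axis, log2 CPM) per library at 6 months (left) and 10 months (right), coloured by genotype. Htr7 climbs with the thalamus level at both ages, and the 3 highest values, between 14.3 and 17.9 CPM, belong to Q20 and Q92 libraries at 10 months.

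Of the 9 thalamus genes 4 rose in Q140 mice at 6 months and 1 fell at 10 months, and 7 rose in Q92 mice at 6 months, where Htr7 had a log2 fold change of 0.31 ± 0.14 (adjusted p = 0.175). Of all genes 11.7% rose in Q140 mice at 6 months and 8.45% fell at 10 months, and 5.44% passed in Q92 mice at 6 months. Of 12 genes of cortical projection neurons, cells of the overlying cortex, 3 fell and 1 rose in Q140 mice at 6 months and 0 passed by edgeR at 10 months. Of all genes 12% fell and 11.7% rose at 6 months, and 19.2% passed at 10 months. The mean of these cortical genes was 2.15 ± 0.726 log2 CPM in Q140 mice and 2.75 ± 0.809 log2 CPM in wild types at 6 months, and 2.58 ± 0.566 log2 CPM in Q140 mice and 2.38 ± 0.796 log2 CPM in wild types at 10 months (SD, n = 8 and 16). The thalamus level also stood beside the other receptor changes, and the 3 receptors that passed in Q140 mice kept their direction with it in the fit. It was 4.29 ± 1.001 log2 CPM in Q140 mice and 3.54 ± 0.883 log2 CPM in wild types at 6 months, and 3.08 ± 0.844 and 4.14 ± 1.07 log2 CPM at 10 months (SD, n = 8 and 16). With it as a covariate the log2 fold change of Htr1b in Q140 mice was -0.52 ± 0.11 at 6 months (adjusted p = 7.68e-04) and -0.94 ± 0.17 at 10 months (adjusted p = 6.01e-05). That of Htr4 was -0.39 ± 0.11 (adjusted p = 0.00638) and -0.84 ± 0.11 (adjusted p = 4.76e-08), and that of Htr2c 0.42 ± 0.09 (adjusted p = 3.56e-04) and 0.65 ± 0.08 (adjusted p = 4.17e-08). With the choroid plexus, thalamus and cortical levels together all 3 receptors passed at both ages, at adjusted p up to 0.0286 (Htr4 at 6 months).

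**Figure D5:**
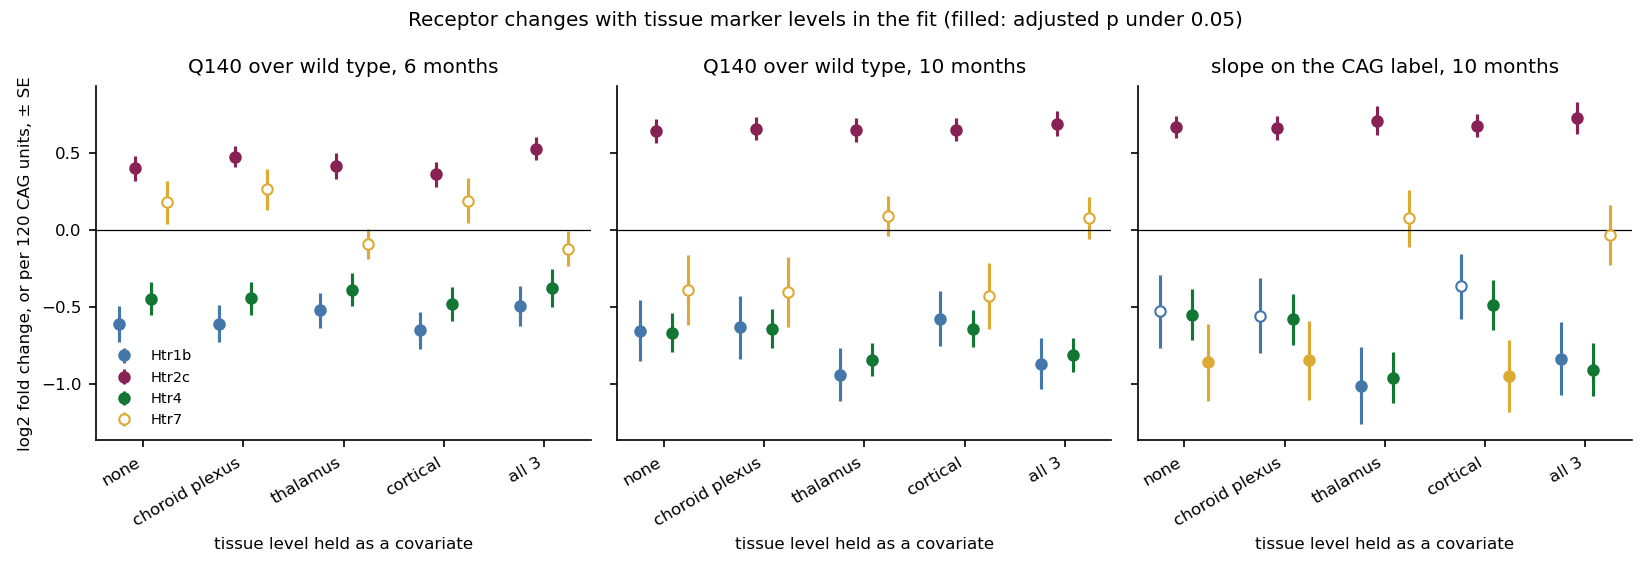
log2 fold change ± SE of Htr1b, Htr2c, Htr4 and Htr7 in Q140 mice over wild types at 6 months (left) and 10 months (middle), and slope per 120 CAG units at 10 months (right), with no tissue level, 1 of 3 or all 3 held in the fit. Htr2c stays above 0 and Htr1b and Htr4 below 0 in each fit shown, while the Htr7 slope was -0.86 with no tissue level and 0.08 with the thalamus level.

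The genes whose levels followed each receptor most closely within groups were named by Pearson's r over 48 libraries after removal of group and sex means, as a description. Htr1b went with Homer1, which encodes a synaptic scaffold protein, at r = 0.907 at 6 months and 0.958 at 10 months, beside Atl2 (0.909) and Rundc1 (0.885) at 6 months and Rgs2 (0.954) and Pptc7 (0.947) at 10 months. Htr1d went with Scube3 (0.845), St8sia3 (0.829) and Bcl11b (0.802), a transcription factor of projection neurons, at 6 months, and with Sowaha (0.944), Ankrd63 (0.943) and Kcnip2 (0.941) at 10 months. Htr1f had weaker partners, at most 0.585 (Tmem42) at 6 months and 0.615 (Matn2) at 10 months. Htr2a went with Ranbp2 (0.850) and again Homer1 (0.816) at 6 months, and with Nrip1 (0.892) at 10 months. Htr2c went with Zcchc12 (0.848), Rab9b (0.824) and Tshz1 (0.808) at 6 months, and Gabrg1 (0.844), Dlk1 (0.813) and Peg10 (0.799) at 10 months. Only Homer1, near Htr1b and Htr2a, and Scube3, near Htr1d and Htr6, were among the 3 closest genes of more than 1 receptor. Htr4 went with Rasgrf2 (0.629) and Gpr89 (0.729), and Htr6 with Epor (0.711) and Rnf44 (0.931), at 6 and 10 months. Htr7 went with Slc6a11, a GABA transporter, at both ages (0.863 and 0.963).

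Age, sex and housing cohort were compared in mice without a knock-in allele. Library numbers of the 6 month and 10 month libraries form separate runs. Libraries held 36.6 ± 1.59 M counts at 6 months and 32.3 ± 1.51 M at 10 months (SD, n = 48 each). Age and run therefore cannot be told apart, here or in the differences between 10 month and 6 month effects above. Of the 8 receptors 0 passed between 10 and 6 months by edgeR or DESeq2 and 0 had an unadjusted p under 0.05, where 9.65% of genes passed; Htr2c was at 70.2 ± 10.1 CPM at 10 months and 74.4 ± 8.37 CPM at 6 months (SD, n = 16 each; log2 fold change -0.09 ± 0.06, adjusted p = 0.385). Between females and males the counts were the same, 0 of 8 by edgeR, by DESeq2 and at an unadjusted p under 0.05, where 0.311% of genes passed. Htr2a had the largest sex difference of the 8, 9.90 ± 2.54 CPM in females and 11.6 ± 2.30 CPM in males (log2 fold change -0.23 ± 0.12, adjusted p = 0.579). The Q140 effect did not differ between the sexes at the threshold for any of the 8 receptors at either age by edgeR or DESeq2, and 0 had an unadjusted p under 0.05; across all genes 0% passed. For Htr2c the difference of the female and male effects was 0.02 ± 0.16 at 6 months and 0.04 ± 0.16 at 10 months. Between the wild-type cohorts 0 of 8 receptors passed by edgeR at either age, where 0% and 0.347% of genes passed at 6 and 10 months, and 3 and 1 had an unadjusted p under 0.05. The closest was Htr1d at 6 months, at 11.98 ± 1.76 CPM in the Q20 cohort and 15.3 ± 2.96 CPM in the Q50 cohort (log2 fold change -0.36 ± 0.09, adjusted p = 0.0938), which DESeq2 called.

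Genes of the serotonin system and the receptors' signalling partners were read from lists made with earlier results of these data known, so their counts are a description beside the 23.7% and 19.2% of all genes. Of 15 further serotonin genes (other receptors and genes of synthesis, transport and breakdown) 10 could be tested at 6 months and 11 at 10 months in Q140 mice, the rest being too low. S100a10, which encodes p11, a protein that binds 5-HT1B and 5-HT4 receptors, fell at both ages (log2 fold change -0.60 ± 0.08, adjusted p = 7.28e-08, and -0.54 ± 0.09, adjusted p = 2.08e-05). Tph2, the enzyme of serotonin synthesis in raphe neurons, passed at 6 months (-0.57 ± 0.19, adjusted p = 0.0211) and was at -0.05 ± 0.20 at 10 months (adjusted p = 0.890). The other tested genes of the list did not pass by edgeR at either age.

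Of 23 Gs and cyclic AMP partners 9 fell and 2 rose in Q140 mice at 6 months, and 6 fell and 2 rose at 10 months. Ppp1r1b, which encodes DARPP-32, and Pde1b, a phosphodiesterase, fell by 0.63 ± 0.06 and 0.60 ± 0.06 on the log2 scale at 6 months (adjusted p = 1.26e-10 and 1.98e-10). Pde10a, a phosphodiesterase of projection neurons, fell by 0.90 ± 0.18 at 10 months (adjusted p = 3.29e-04) and Adcy5, the main striatal adenylyl cyclase, by 0.63 ± 0.16 (adjusted p = 0.00413). The rises, named after their values were seen, were Prkar2a and Adcy1 at 6 months and Prkar1b and Prkacb at 10 months. Of 12 Gi and Go partners 3 fell at 6 months and 4 at 10 months, with 0 rises by edgeR at either age, among them Rgs4 and Rgs9, which shorten G protein signals (-0.54 ± 0.06 and -0.58 ± 0.08 at 6 months, adjusted p = 1.71e-10 and 3.88e-07). Of 15 Gq partners 7 fell and 1 rose at 6 months and 7 fell at 10 months; Itpr1, the inositol trisphosphate receptor on calcium stores, fell by 0.47 ± 0.07 and Plcb1, a phospholipase C, by 0.42 ± 0.06 at 6 months (adjusted p = 1.55e-06 and 1.76e-06). At 10 months Plcb3, another phospholipase C, fell by 0.23 ± 0.04 (adjusted p = 1.68e-04). The 1 rise, named after its value was seen, was Plcb4 (0.52 ± 0.19, adjusted p = 0.0394), which had a log2 fold change of -0.76 ± 0.31 at 10 months (adjusted p = 0.0735). Plcb4 and Adcy1 also rose in Q92 mice at 6 months, as 7 of 9 thalamus genes did, where 5.44% of all genes passed. Both fell in the regression on CAG label at 10 months, as all 9 thalamus genes did, where 24% of all genes passed. The part of thalamus RNA in the values of these 2 genes was not tested. Median log2 fold changes of the Gs, Gi and Gq lists at 6 months were -0.02, 0.01 and -0.16, beside 0.01 over all genes tested, and at 10 months -0.13, -0.16 and -0.23, beside 0.01.

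Markers of the cells that carry these receptors changed in the same comparison. All 13 markers of both projection neuron types fell in Q140 mice at 6 months and 6 of 13 at 10 months, where 12% and 8.45% of all genes fell; 5 of the 13 (Ppp1r1b, Pde10a, Gng7, Adcy5 and Rgs9) are also among the signalling partners above. Of 9 direct pathway markers 5 fell and 2 rose at 6 months and 3 fell and 2 rose at 10 months, and of 5 indirect pathway markers 4 and 3 fell. Of 8 striatal interneuron markers 0 passed at either age by edgeR. At 6 months Arpp21 and Scn4b led the shared list (log2 fold changes -0.86 ± 0.06 and -0.99 ± 0.08), and Drd1 and Penk, the receptor and peptide that mark the direct and indirect pathway, led theirs (-0.65 ± 0.07 and -1.06 ± 0.06). The part of cell number in any of these values was not tested.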

How the data were processed

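The authors deposited, for each of 96 striatal mRNA libraries, estimated counts and FPKM per Ensembl gene. CASAVA 1.8.2 is named in the submitters' processing notes; aligner, genome build, annotation and strand of counting were not stated in the labels or file headers. Of the non-zero deposited expected counts 27.7% were fractional, and they were rounded to whole numbers. Libraries held 29.1 to 40.2 M counts. Symbols and positions came from GENCODE M21 (GRCm38), which named 37607 of 39179 identifiers, and promoter windows from RefSeq.

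Counts were tested with edgeR 4.0.16 (R 4.3.3): TMM scaling, filterByExpr, robust quasi-likelihood fits of the 48 libraries of an age on group and sex, and Benjamini-Hochberg adjustment over all genes tested, at a threshold of 0.05, in 19 comparisons. CPM were scaled by TMM within each age. Alternatives used DESeq2 1.42.0 and limma 3.58.1 on log2(FPKM + 1) or log2(FPKM + 0.1), a pseudocount that shrinks fold changes of low genes. On simulated data for Q140 against wild types at 10 months (200 changed genes among 17193), edgeR recovered 68% of 1.25-fold, 90% of 1.5-fold and 100% of 2-fold changes. The simulated counts were drawn for each gene alone, without the differences in tissue levels seen between the real libraries. These shares therefore need not hold for the real libraries. Correlations of Htr2c with Ttr used 100000 resamples, two-sided.

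Named were all 8 receptors, Htt, Ttr, per other list at most the 2 genes with the smallest p past the threshold in a comparison, and per receptor the 3 genes of highest r. Prkar2a, Adcy1, Prkar1b, Prkacb, Plcb4, Gng7 and the antisense gene D430036J16Rik fall outside this rule and were named after values were seen. A further gene that the rule names is not reported here. The receptors and lists were chosen with earlier results of these data known. Labels give each library a genotype, age, sex and replicate number. Library names also hold further numbers, which were not read as animal numbers, and no label states animal identity. The p-values therefore measure the spread between these libraries.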

Additional observations from a re-analysis of the deposited data

Results flagged for a closer look

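Of 96 sets of 8 libraries (8 receptors in 12 groups) 8 held a library far from the others by Dixon's test, where chance gives about 1 in 20; they came from 6 libraries. In Q140 mice Htr6 was at 6.30 CPM in M2 at 6 months, against 3.44 to 4.67 CPM in the others, and Htr7 at 6.82 CPM in F2 at 10 months, against 4.06 to 4.88 CPM. In Q92 mice at 10 months F1 was lowest for Htr1b, at 24.4 CPM against 60.1 to 86.8 CPM, and for Htr1d, at 6.72 CPM against 12.6 to 16.01 CPM, and highest for Htr7, at 14.3 CPM against 4.36 to 7.27 CPM. In Q20 mice Htr2c was at 104.1 CPM in M4 at 6 months, against 59.9 to 78.7 CPM, and at 95.6 CPM in F4 at 10 months, against 57.5 to 73.1 CPM. In wild types of the Q20 cohort at 6 months Htr1d was at 15.8 CPM in M4, against 10.05 to 12.6 CPM. Q92 F1 and Q20 F4 at 10 months are among the 4 libraries that stood apart.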

How the results depend on the processing

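In Q140 mice against wild types Htr1b, Htr2c and Htr4 kept their direction under every alternative run. Leaving out each library gave 0.376 to 0.430 at 6 months and 0.619 to 0.666 at 10 months for Htr2c, -0.475 to -0.409 and -0.724 to -0.606 for Htr4, and -0.662 to -0.565 and -0.766 to -0.568 for Htr1b. Against Q20 mice Htr1b at 10 months missed the threshold (-0.51, adjusted p = 0.0881). In Q92 mice at 6 months 1 receptor passed with DESeq2, the replicate block or the cortical level (Htr1b) or the choroid plexus level (Htr7), and 0 to 1 with a library left out. In Q92 mice at 10 months 2 passed with DESeq2 or the thalamus, cortical or all 3 levels (Htr2c and Htr4), 0 with the L number of the library name as a block, in either sex alone or against Q50-cohort wild types alone, and 0 to 1 with a library left out. Between Q140 and Q92 mice at 6 months 1 passed by limma with FPKM + 1 or with FPKM + 0.1 and no filter, with the L number block or in females, 0 in males, and 1 to 2 with a library left out; at 10 months 0 passed with no filter, the L number block or either sex alone, 4 with the thalamus level (Htr1b, Htr2a, Htr2c, Htr4), 2 with all 3 levels (Htr1b, Htr2c) and 0 to 1 with a library left out. Between wild-type cohorts at 6 months 1 passed with DESeq2 or the choroid plexus level (Htr1d), and 0 to 1 with a library left out (1 without Q20-cohort M4). In Q20 mice at 10 months 3 passed with the L number block (Htr1d, Htr1f, Htr7). On CAG label 0 passed in males at 6 months, and 1 in females and 1 in males at 10 months (Htr2c). The share of all genes that passed in each alternative fit is not given here, so these counts cannot be set beside it. The Htr7 slope at 10 months was 0.075 with the thalamus level, opposite in sign. The correlation of Htr2c and Ttr without removal of means was 0.130 at 6 months and -0.153 at 10 months; at 10 months it was -0.276 on FPKM and -0.297 without the 4 libraries that stood apart, each missing 0.05, an alternative chosen after seeing the data. The cause of these changes was not tested. Replicate numbers did not pair the libraries (mean correlation of same-named deviations 0.027 at 6 months and -0.023 at 10 months); with the replicate block the Htr2c change in Q140 mice was 0.40 and 0.65, and the calls in that comparison were kept.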
